A study of Homo sapiens with 13 samples.

Results

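The promoters of the numbered zinc finger (ZNF) genes of chromosome 19 were examined in the human glioblastoma cell line T98G, in G1 and in M-phase. Members were the ATAC-seq peaks of the deposited table (hg19) on chromosome 19 that overlapped a transcription start site (TSS) of a protein-coding GENCODE gene named ZNF plus a number. There were 239 such peaks among 129347 in the whole table and among 3407 on chromosome 19. Of 246 ZNF genes of this kind on the chromosome, 224 had at least 1 promoter peak, and 13 peaks covered the start sites of 2 ZNF genes. The comparison set was the other 720 protein-coding promoter peaks of chromosome 19, and the 247 promoter peaks of ZNF genes on other chromosomes were set beside them.

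ZNF genes encode proteins with arrays of C2H2 zinc fingers, each finger folding around a zinc ion and reading a few bases of DNA. Most of those on chromosome 19 also carry a KRAB domain, which recruits the corepressor KAP1 (TRIM28) and, through it, the enzymes that deposit H3K9me3. The genes arose by tandem duplication and stand in clusters, and many of the proteins silence retrotransposons or other ZNF genes. The bodies of ZNF genes are themselves often covered by H3K9me3, whereas their promoters are usually CpG-rich and open.

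G1 cells (3 libraries) had been kept without serum for 72 h. M-phase cells (3 libraries) had been kept without serum for 48 h, then released for 36 h into medium that contained serum again and nocodazole, which blocks spindle assembly, and collected by shake-off. G1 cells were still without serum at harvest, so that phase, the return of serum, the time without it and nocodazole cannot be told apart. ATAC-seq counts insertions of the Tn5 transposase, which enters open chromatin, and every value below is a read count in a peak after the authors scaled the libraries down to the smallest one ("scaled count"). G1 libraries held 4333935 to 5365024 reads in peaks and M-phase libraries held 12470564 to 14202790. M-phase replicates had been sequenced on 2 instruments, whereas each G1 replicate is 1 sample whose title names no instrument. Depth, instrument and phase therefore cannot be told apart. Scaled totals in peaks were 4309292, 4191845 and 5092426 in G1 and 5475345, 5851936 and 6000423 in M-phase, so that G1 replicate 3 stood above the other G1 libraries, and results that rest on it are also given without it. Nothing in the labels ties the replicates to separate cultures, so p-values measure the spread between these libraries.

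Several gene clusters shared a stretch of sequence just upstream of their start sites, and the promoters on which the comparisons turn are shown first. The sequences are from GRCh37, the assembly of hg19, read 5′ to 3′ on the strand of the gene, and each is the 120 bases nearest the start site that lie in no annotated exon. In the first 6, capitals mark the 9-base word TCCAATCAG, which contains the CCAAT box bound by NF-Y. ZNF91, ZNF93 and ZNF726 belong to the cluster at 19.78 to 24.31 Mb (cluster 4), and ZNF20, ZNF700 and ZNF439 to the cluster at 11.59 to 12.75 Mb (cluster 3).
ZNF91 (chr19:23578274-23578393, minus strand): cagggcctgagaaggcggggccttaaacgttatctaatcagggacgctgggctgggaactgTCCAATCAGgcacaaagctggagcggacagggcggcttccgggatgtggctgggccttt
ZNF93 (chr19:20011602-20011721, plus strand): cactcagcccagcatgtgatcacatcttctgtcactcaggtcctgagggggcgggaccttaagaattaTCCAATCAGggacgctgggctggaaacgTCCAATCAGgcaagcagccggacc
ZNF726 (chr19:24097558-24097677, plus strand): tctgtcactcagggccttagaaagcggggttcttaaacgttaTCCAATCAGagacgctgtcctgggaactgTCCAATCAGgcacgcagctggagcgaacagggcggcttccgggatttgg
ZNF20 (chr19:12251171-12251290, minus strand): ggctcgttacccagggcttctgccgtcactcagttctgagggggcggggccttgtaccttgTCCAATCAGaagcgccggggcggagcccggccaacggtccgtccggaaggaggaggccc
ZNF700 (chr19:12035763-12035882, plus strand): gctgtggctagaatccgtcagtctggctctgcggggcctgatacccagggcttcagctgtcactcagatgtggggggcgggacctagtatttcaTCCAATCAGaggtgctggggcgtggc
ZNF439 (chr19:11959421-11959540, plus strand): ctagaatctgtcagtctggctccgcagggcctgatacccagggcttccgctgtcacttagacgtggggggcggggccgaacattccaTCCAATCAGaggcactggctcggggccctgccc

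The word was found by counting 9-base words on the strand of the gene in windows from 250 bases before to 50 bases after the canonical start sites, so its choice followed the sequences themselves. It was present in all 27 windows of cluster 4 and in 19 of the 23 of cluster 3, and also in 4 of 5 in the small cluster at 2.82 to 2.94 Mb (cluster 1). No canonical window of the other clusters or of the genes outside clusters held it, and it occurred in 2 of the 720 windows of other chromosome 19 promoters and in 110 of 13469 windows of all protein-coding promoters. It began 59 bases before the start site at ZNF91 and 64 bases before it at ZNF20, and ZNF93 and ZNF726 carried a second copy.

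A different word was frequent in the cluster at 52.07 to 54.08 Mb (cluster 9), where GCCCCGCCC, the reverse complement of a GC box, was found in 21 of 33 windows. This word was common elsewhere, with 135 of 720 windows of other chromosome 19 promoters and 1863 of 13469 of all protein-coding promoters. Among ZNF promoters it was also in 5 of 13 windows of cluster 2, 3 of 51 of cluster 10 and 2 of 5 outside the clusters. The word is shown in capitals for the ZNF347 and ZNF616 promoters, which had among the largest rises in M-phase. The promoter of ZNF274, whose product binds the 3′ ends of other ZNF genes and recruits KAP1 there, is shown with an ETS motif in capitals (CCGGAAG, here on the opposite strand as CTTCCGG).
ZNF347 (chr19:53662329-53662448, minus strand): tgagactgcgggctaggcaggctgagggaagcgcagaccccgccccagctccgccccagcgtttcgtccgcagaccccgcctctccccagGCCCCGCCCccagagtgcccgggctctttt
ZNF616 (chr19:52643192-52643311, minus strand): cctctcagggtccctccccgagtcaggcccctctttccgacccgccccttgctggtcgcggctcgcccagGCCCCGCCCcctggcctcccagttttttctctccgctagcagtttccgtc
ZNF274 (chr19:58694276-58694395, plus strand): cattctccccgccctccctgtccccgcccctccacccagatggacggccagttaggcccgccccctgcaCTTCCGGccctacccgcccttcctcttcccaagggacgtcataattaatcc

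In the table as deposited, ZNF promoters on chromosome 19 that differed between the phases were nearly all more accessible in M-phase. Of the 237 peaks tested, 108 (45.6%) were higher in M-phase and 2 were lower at an adjusted p under 0.05 (limma with a mean-variance trend on log2(scaled count + 8), Benjamini-Hochberg over all 73121 peaks tested). Over all peaks tested, 14.3% were higher and 13.1% were lower. Of the 13131 protein-coding promoter peaks tested in the genome, 47.1% were higher and 5.29% were lower, so the share of higher ZNF promoters was close to that of promoters. The median log2 change over all 239 peaks was 0.50, with quartiles at 0.13 and 0.80, and 40 peaks had a change below 0. In 125 of the peaks tested (52.7%) every M-phase library lay above every G1 library, and in 3 (1.27%) every one lay below. The shares were 19.7% and 18.6% of all peaks tested, and 52.3% and 7.76% of protein-coding promoter peaks tested.

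The median ZNF promoter peak had a scaled count of 77.5, 82.8 and 100 in the G1 libraries and of 117, 120 and 130 in the M-phase libraries. G1 replicate 3 was the highest of the G1 libraries, and the libraries of the phases did not overlap. Without G1 replicate 3, 125 peaks were higher and 1 was lower, with a median change of 0.57.

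The split of the calls depended on how the libraries were scaled. When every library was set to the same total in peaks, 67 of the 237 ZNF promoter peaks were higher and 13 were lower, beside 8.67% and 24.7% of all peaks tested. The median change of all tested peaks moved from 0.02 to −0.23. Of the 13131 protein-coding promoter peaks tested, 4231 were then higher and 2121 lower. Of the 699 other promoter peaks of chromosome 19 tested, 314 were higher and 36 lower. The share of higher ZNF promoters was thus below that of either promoter set. After a loess scaling that levels each library along the range of counts, 75 ZNF promoter peaks were higher and 16 were lower, beside 10.9% and 13.3% of all peaks tested. The other promoters of the chromosome then had 257 higher and 21 lower. The median change of the ZNF promoter peaks was 0.18 with equal totals and 0.29 after loess scaling, above that of all peaks tested in both. With equal totals it was 0.34 over the other promoters of the chromosome and 0.11 over all protein-coding promoters. A count test (edgeR quasi-likelihood) on the whole reads recovered from the scaled values gave 110 higher and 2 lower, beside 13.8% and 13.9% of all peaks tested.

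The other protein-coding promoters of chromosome 19 changed more, with 437 of 699 tested peaks (62.5%) higher, 7 lower and a median log2 change of 0.67 over all 720. ZNF promoters on other chromosomes had 113 of 246 tested peaks higher, 10 lower and a median of 0.43, the same median as over all 13469 protein-coding promoter peaks. After loess scaling the ZNF promoters on other chromosomes had 53 higher, 50 lower and a median of 0.02, and all protein-coding promoters had 2949 higher, 2304 lower and a median of 0.07. On the log2(scaled count + 8) scale, the median level of ZNF promoters minus that of the other promoters of the chromosome was −0.53, −0.42 and −0.26 in the G1 libraries and −0.57, −0.71 and −0.58 in the M-phase libraries. The gap was wider in each M-phase library than in any G1 library, though by little between M-phase replicate 1 and G1 replicate 1. The difference in median change between the sets was −0.17, and −0.13 without G1 replicate 3. These are descriptions of a set chosen with earlier results known, and no test was made of the difference.

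ZNF promoter peaks were weaker than the comparison set, and the size of the change followed the level, taken as the mean over all 6 libraries. This mean includes the M-phase libraries, so a peak that rises moves to a higher level. The constant added to the counts before the log also shrinks the change of weak peaks. Part of the relation between level and change below is therefore built in. The ranges, the correlation and the matched range do not use G1 level, and a relation with G1 level was not tested. The median peak had a mean scaled count of 106 (102 per kb) against 157 (140 per kb) for the other promoters of the chromosome, with a median width of 1068 bp against 1142 bp. Among ZNF promoters the median log2 change was 0.14 in the 25 peaks with a mean scaled count under 50, 0.30 in the 81 peaks from 50 to 100, 0.64 in the 101 peaks from 100 to 200, 0.89 in the 29 peaks from 200 to 400, and 1.08 in the 3 peaks above 400. The other promoters of chromosome 19 had medians of 0.02, 0.36, 0.65, 0.92 and 1.29 in the same ranges. Between the quartiles of the ZNF levels (scaled counts of 75 to 163), the 119 ZNF promoters and 205 others differed in median change by −0.02, against −0.17 over all of them. After loess scaling both sets had a median of 0.29. The correlation across ZNF promoter peaks between mean scaled count and log2 change was 0.47 (Spearman's rho, 239 peaks that share the same 6 libraries) and −0.05 over the tested peaks after loess scaling.

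**Figure D1:**
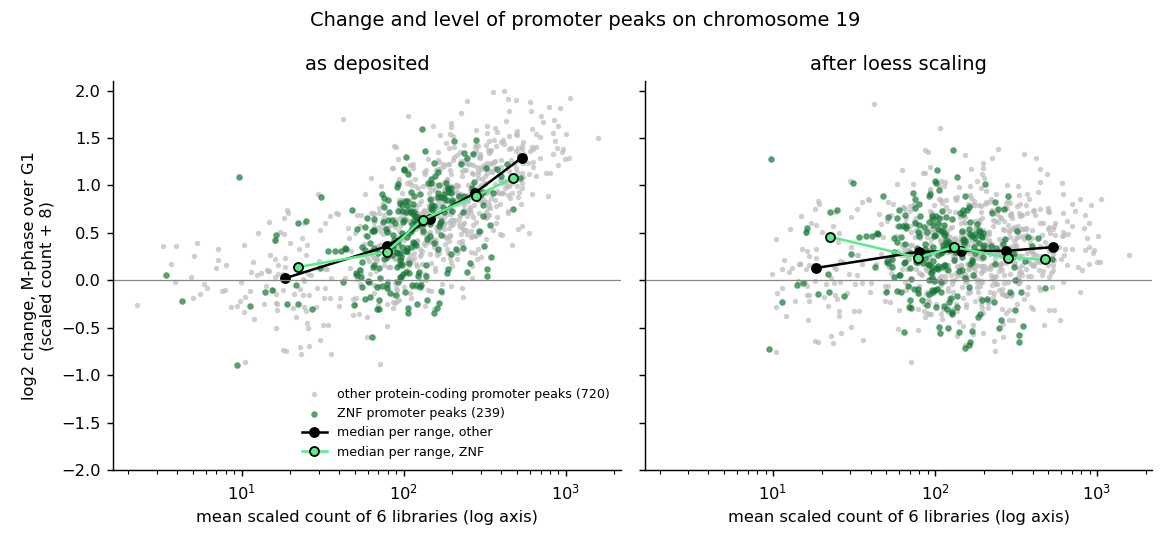
Log2 change (M-phase over G1, scaled count + 8) of each promoter peak of chromosome 19 against its mean scaled count over 6 libraries (log axis), as deposited on the left and after loess scaling of the tested peaks on the right, with the median of each range of counts joined by lines. ZNF promoters (239, green) and other protein-coding promoters (720, grey) rise together with level as deposited, from medians of 0.14 and 0.02 under a count of 50 to 1.08 and 1.29 above 400. After loess scaling the medians of the ZNF promoters lie between 0.22 and 0.46 with no rise with level. The mean includes the M-phase libraries, so part of the rise as deposited is built in.

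The ZNF genes formed 10 clusters along the chromosome, split wherever neighbouring gene starts lay more than 1 Mb apart and holding at least 3 genes each, with 8 genes outside them. The clusters differed in their change, most plainly between clusters 3 and 4, whose levels were close. In cluster 3 (chr19:11594242-12750912, 25 genes and 25 peaks), 21 peaks were higher in M-phase and none was lower, with a median log2 change of 0.86. In cluster 4 (chr19:19779605-24312770, 37 genes and 32 peaks), 3 were higher and 1 was lower, with a median of 0.07. The median of the mean scaled count was 114 in cluster 3 and 98.4 in cluster 4.

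High shares were also seen in cluster 2 (chr19:7069714-9903856), with 11 of 14 peaks higher and a median of 0.76, and in cluster 9 (chr19:52074536-54083523), with 23 of 37 tested peaks higher and a median of 0.68. Cluster 1 had 4 of 5 peaks higher, with a median of 0.79. In the largest cluster, cluster 10 (chr19:55987984-58992597, 59 genes), 27 of 58 tested peaks were higher, none was lower and the median was 0.52, with 14 higher and 8 lower after loess scaling and 14 higher and 2 lower with equal totals. Cluster 2 had 6 higher and 1 lower with equal totals. Low shares were found in several clusters in the middle of the chromosome, though not in all promoters there. Cluster 6 (chr19:36673178-38307940) had 6 of 27 peaks higher, none lower and a median of 0.13, but 9 higher and a median of 0.35 without G1 replicate 3, and 2 higher and 3 lower after loess scaling. The counts were low as well in cluster 5 (chr19:35168544-35455133), with 0 of 6 and a median of 0.12, and in cluster 8 (chr19:44029649-45579736), with 6 of 22 higher, 1 lower and a median of 0.38. Cluster 7 held 3 peaks, of which 2 were higher, with a median of 0.72. The genes outside the clusters lay between 14.8 and 50.56 Mb. Of their 8 peaks 5 were higher and 0 were lower, with a median of 0.80, and of 0.18 after loess scaling. The differences between clusters were also seen in the stronger peaks. Of those whose mean scaled count reached 100 there were 16 of 17 higher in cluster 3, 19 of 19 in cluster 9, 3 of 15 in cluster 4 and 5 of 14 in cluster 6. Among peaks below 100 the counts were 5 of 8, 4 of 19, 0 of 17 and 1 of 13 in the same order. The mean includes the M-phase libraries, so a peak that rises reaches 100 more readily, and the split is not one by G1 level.

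**Figure D2:**
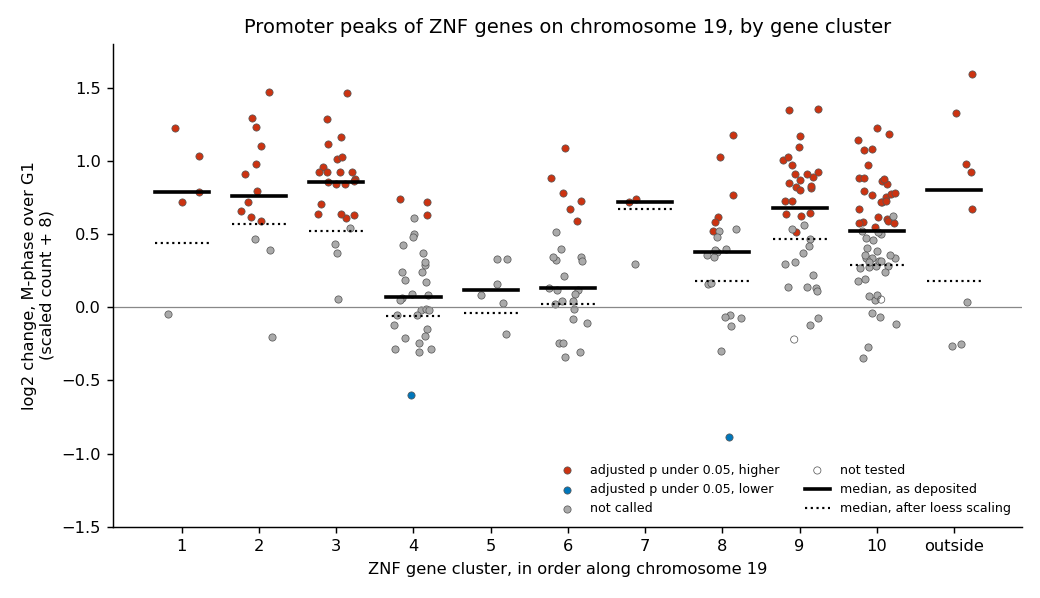
Log2 change (M-phase over G1, scaled count + 8) of each ZNF promoter peak by gene cluster in order along chromosome 19, coloured by the limma call, with medians as deposited (solid bar) and after loess scaling (dotted bar). Clusters 4, 5 and 6 have medians of 0.07, 0.12 and 0.13 (0.29, 0.15 and 0.35 without G1 replicate 3), whereas clusters 1, 2 and 3 have medians of 0.79, 0.76 and 0.86.

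The cluster medians were also taken in single libraries. In cluster 3 the median peak had scaled counts of 79.5, 84.4 and 93.0 in G1 and of 139, 152 and 162 in M-phase. In cluster 4 it had 79.5, 77.7 and 126 in G1 and 102, 105 and 108 in M-phase, so that G1 replicate 3 lay above the M-phase libraries and the other G1 libraries lay below them. Without G1 replicate 3, cluster 4 had 7 peaks higher, none lower and a median of 0.29, whereas cluster 3 had 21 higher and a median of 0.94. The median of cluster 4 was −0.01 without G1 replicate 1 and −0.04 without G1 replicate 2, and 1 peak was higher without G1 replicate 2 or without M-phase replicate 2. In the same refits cluster 2 had 7 higher without M-phase replicate 2, cluster 8 had 3 higher without G1 replicate 2, and the calls of cluster 7 were lost without G1 replicate 1 or 2 and fell to 1 when any one M-phase replicate was left out.

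On the log2 scale, the median of cluster 3 minus that of cluster 4 was 0.00, 0.11 and −0.41 in the G1 libraries and 0.41, 0.50 and 0.55 in the M-phase libraries, with no overlap between the phases. The same held for cluster 9 minus cluster 6, at −0.20, −0.07 and −0.22 in G1 and 0.20, 0.26 and 0.12 in M-phase. These pairs of clusters were chosen after their values were seen, and 3 against 3 libraries cannot give an exact two-sided permutation p below 0.1, so no test is given. After loess scaling the medians of clusters 3 and 4 were 0.52 and −0.06, with 18 higher and 0 lower against 0 higher and 4 lower. With equal totals the medians were 0.54 and −0.25, with 16 higher and 0 lower against 0 higher and 6 lower.

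**Figure D3:**
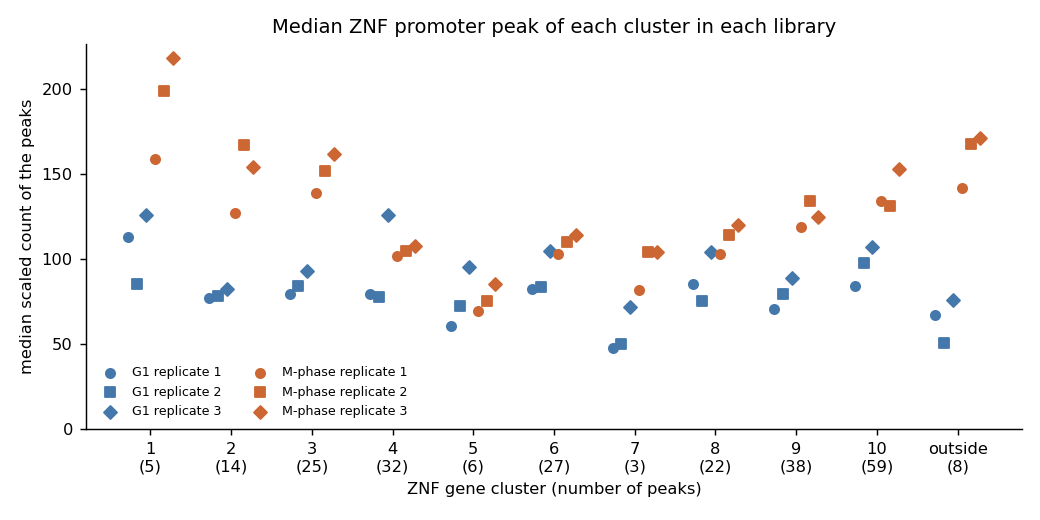
Median scaled count of the ZNF promoter peaks of each cluster in each library, with G1 libraries in blue and M-phase libraries in orange and the number of peaks in parentheses. The phases are well apart in cluster 3 (79.5 to 93.0 against 139 to 162), and in cluster 4 G1 replicate 3 (126) lies above all M-phase libraries (102 to 108).

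Promoters with the shared CCAAT word differed in their change between the clusters. Among canonical promoters that carried TCCAATCAG, 16 of 19 were higher in cluster 3 with a median of 0.86 and 3 of 27 were higher in cluster 4 with a median of 0.17. The 4 canonical promoters of cluster 3 without it were all higher, with a median of 1.05. The clusters differed in CpG content, with a median observed over expected CpG ratio of 0.605 in cluster 3 and 0.462 in cluster 4, against 0.769 over all ZNF promoter peaks. The other clusters, with high and low changes among them, had ratios from 0.717 (cluster 7) to 0.841 (cluster 9). Spearman's rho between the ratio and the log2 change was 0.12 over 239 peaks, and 0.01 over the tested peaks after loess scaling. The part of CpG content in the difference between the clusters was not tested.

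Named promoters were taken by rule from the largest rises and falls, the strongest peaks, the least changed strong peaks and a list of genes with known roles. The rule for rises and falls asked for phases that do not overlap, so that this holds for each of them by choice. The largest rise was at ZNF507 (chr19:32836095-32837302), which lies outside the clusters. Its scaled counts were 62.6, 50.8 and 67.0 in G1 and 173.4, 199.4 and 221.8 in M-phase, a log2 change of 1.60 ± 0.207 (SE; limma, adjusted p = 1.25e-09). The ZNF699 promoter (chr19:9419659-9420953) came next, with counts of 110.4, 122.7 and 214.0 in G1 and 371.2, 408.3 and 459.0 in M-phase and a change of 1.47 ± 0.188.

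The ZNF20 promoter printed above had scaled counts of 93.5, 93.8 and 128.0 in G1 and of 263.7, 300.4 and 345.5 in M-phase (1.47 ± 0.191, limma, adjusted p = 1.53e-09). At the cluster 9 promoters, the ZNF347 peak went from 70.6, 56.3 and 95.0 to 191.6, 187.1 and 217.5 (1.36 ± 0.206), and the ZNF616 peak from 134.2, 95.3 and 165.0 to 318.4, 364.2 and 335.4 (1.35 ± 0.188). The other large rises were at ZNF333 (1.33), ZNF266 (1.29) and ZNF653 (1.29). ZNF333 shares its peak with a start site of ADGRE3, an adhesion G protein-coupled receptor, and ZNF653 with one of an unnamed protein-coding gene. The ZNF266 peak also covers a start site of a gene that is not protein-coding. In these peaks the reads do not say which of the genes they belong to.

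A single promoter met the rule for falls. The ZNF726 peak (chr19:24097349-24098088) had scaled counts of 70.6, 65.6 and 100 in G1 and of 54.4, 56.4 and 36.6 in M-phase, a log2 change of −0.60 ± 0.235 (limma, adjusted p = 0.0463). The call was lost in 5 of the 6 refits that left out a library, with log2 changes from −0.70 to −0.43 and limma adjusted p from 0.0543 to 0.258. It was also lost after loess scaling (−0.54, adjusted p = 0.0621), with a pseudocount of 1 (−0.67, adjusted p = 0.0557) and without the filter on low values (−0.60, adjusted p = 0.0674). The other lower peak was at a non-canonical start site of ZNF155 (named after its values were seen), with 16.9, 17.2 and 10.0 in G1 and 3.7, 4.9 and 3.8 in M-phase (−0.89 ± 0.277, limma, adjusted p = 0.00989). The peak at the canonical start site of ZNF155 had a change of −0.30 and was not called.

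**Figure D4:**
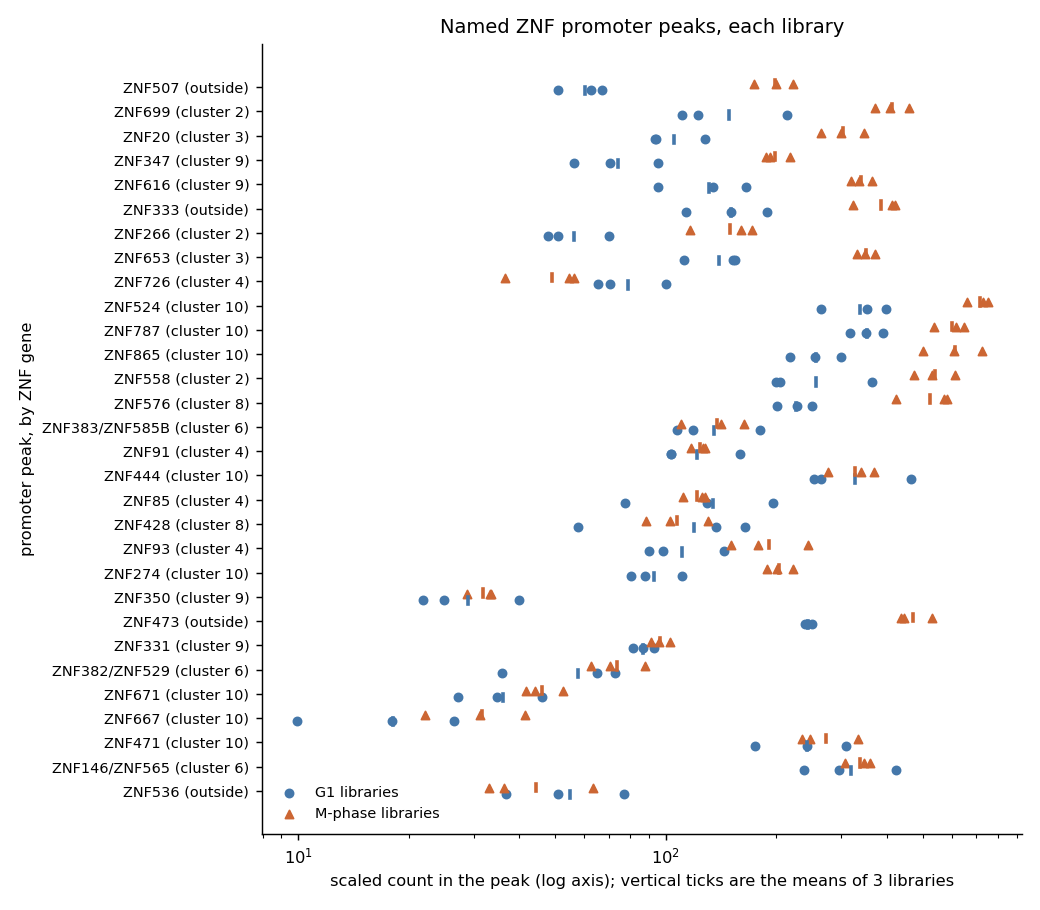
Scaled count of each named ZNF promoter peak in each of the 6 libraries (log axis), with G1 as blue circles, M-phase as orange triangles and the mean of each phase as a vertical tick. The 8 largest rises at the top and the fall at ZNF726 were chosen to have no overlap between the phases, and the peaks from ZNF383 to ZNF428 overlap.

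The 5 peaks with the highest mean scaled count were all higher in M-phase, and 4 of them belong to genes without a KRAB pattern. They were ZNF524, which encodes a telomere-binding protein (308 scaled counts per kb, log2 change 1.08), ZNF787 (287 per kb, 0.75), ZNF865 (241 per kb, 1.22), ZNF558 (324 per kb, 1.10) and ZNF576 (204 per kb, 1.18). Start sites of other protein-coding genes lie in 3 of these peaks, FIZ1 in that of ZNF524, MBD3L1 in that of ZNF558, and IRGQ and SRRM5 in that of ZNF576, and the reads cannot be assigned to either gene. ZNF524 had 351.9, 264.8 and 397.0 in G1 and 661.2, 728.9 and 752.1 in M-phase. After loess scaling the changes of ZNF524 (0.22) and ZNF787 (−0.08) were no longer called.

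Some strong peaks had small changes. Among peaks averaging 100 or more, the 5 with the smallest change were at ZNF383 (shared with ZNF585B, 0.04), ZNF91 (0.05), ZNF444 (0.05), ZNF85 (−0.05) and ZNF428 (−0.05). ZNF91, a repressor of SVA retrotransposons, had 103.4, 103.1 and 159.0 in G1 and 126.5, 117.0 and 127.5 in M-phase, and the phases overlapped. The SE of these changes lay between 0.181 and 0.227. A peak that was not called is not shown to be unchanged. Larger changes were also not called elsewhere, such as 0.54 at ZNF709 (limma, adjusted p = 0.0696). The signs of these 5 changes turned in some refits, for example to −0.29 at ZNF383 with equal totals and to 0.25 at ZNF85 without G1 replicate 3. After loess scaling ZNF444 was lower, with a change of −0.65.

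Among the genes with known roles, ZNF93, a repressor of LINE-1 elements and a member of cluster 4 like ZNF91, was among the 3 promoters of that cluster that were higher in M-phase. Its peak had 98.4, 89.8 and 144.0 in G1 and 178.0, 243.1 and 150.6 in M-phase (0.74 ± 0.204, limma, adjusted p = 0.00305), with no overlap. The call was lost without M-phase replicate 2 (0.56, adjusted p = 0.0983), with equal totals (0.41, adjusted p = 0.0619) and after loess scaling (0.39, adjusted p = 0.0871). The other higher peaks of cluster 4 were at ZNF430 (0.72) and ZNF101 (0.63), named after their values were seen. In cluster 3 the 4 peaks that were not called were at ZNF439 (0.06), ZNF563 (0.37), ZNF442 (0.43) and ZNF709 (0.54), likewise named afterwards.

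ZNF274 had 80.5, 110.9 and 88 in G1 and 200.2, 221.7 and 188.1 in M-phase, a change of 1.07 ± 0.199 (limma, adjusted p = 1.08e-05). ZNF473 (ZFP100), a component of the machinery that forms the 3′ ends of histone mRNAs, had 249.5, 239.8 and 242.0 in G1 and 435.8, 531.5 and 446.1 in M-phase (0.92 ± 0.169, limma, adjusted p = 8.47e-06). In both, all M-phase libraries lay well above G1. The ZNF473 peak also covers a start site of VRK3, a kinase gene, and after loess scaling its change was 0.21 and was not called.

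The remaining promoters of the list did not pass the test. ZNF146, which encodes a protein made almost only of fingers, shares a strong peak with ZNF565 that had 296.3, 237.5 and 423.0 in G1 and 308.1, 360.5 and 346.9 in M-phase (0.12 ± 0.177). After loess scaling it was lower (−0.58, limma, adjusted p = 0.000209). ZNF350 (ZBRK1), a repressor that binds BRCA1, had a weak peak with 21.9 to 40.0 in G1 and 28.8 to 33.4 in M-phase (0.14 ± 0.270). ZNF331 had 4 promoter peaks with changes from −0.22 to 0.14, of which the weakest was not tested and the strongest lay at a non-canonical start site. ZNF536, a repressor of neuronal differentiation, had a change of −0.26 ± 0.254 in a peak at a non-canonical start site.

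A group of ZNF genes on chromosome 19 is known for promoter methylation in tumours, and its peaks in this line ranged from absent to strong. ZNF582 had no promoter peak. ZNF667 (31.63 ± 9.60 in M-phase against 18.17 ± 8.35 in G1, SD, n = 3), ZNF671 (46.03 ± 5.65 against 36.03 ± 9.41) and ZNF382 (73.53 ± 12.8 against 57.83 ± 19.5, in a peak shared with ZNF529) were weak, and each phase pair overlapped. ZNF471 was strong, with 272.0 ± 54.3 in M-phase and 241.9 ± 67.0 in G1. None was called, with log2 changes of 0.62, 0.31, 0.35 and 0.18. The ZNF667 peak lies at a non-canonical start site and also covers a start site of ZNF667-AS1. ZNF667 was called higher after loess scaling (0.75, limma, adjusted p = 0.0433) and without G1 replicate 2 (0.85, adjusted p = 0.0383), and ZNF471 was lower after loess scaling (−0.42, adjusted p = 0.0204).

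Promoter peaks were missing at 22 ZNF genes, of which 8 were among the 37 genes of cluster 4, 5 among the 39 of cluster 9, 4 in cluster 8, 3 in cluster 10 and 2 in cluster 2. Clusters 1, 3, 5, 6 and 7 had a peak at every gene. The genes without a peak in cluster 4 were ZNF208, ZNF257, ZNF676, ZNF729, ZNF98, ZNF99, ZNF723 and ZNF728. Their arrays had 36 fingers at ZNF208, 34 at ZNF729, 21 at ZNF99 and 11 to 14 at the others, against a median of 12. ZNF91, with 31 fingers in the same cluster, had a peak. For ZNF98 the nearest peak ended 189 bp from the gene start and for ZNF728 it was 42920 bp away. A missing peak says only that the authors' peak calling on merged replicates found none there.

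Fingers and KRAB domains were counted in proteins translated from GENCODE coding sequences on GRCh37, with fingers taken by the spacing of their cysteines and histidines. A KRAB pattern was found for 210 of the 246 genes, none was found for 35, and ZNF274 had no frame free of stops in this annotation and was left out. The 202 promoter peaks assigned to genes with the pattern had 87 higher, 2 lower and a median change of 0.48, and the 36 assigned to genes without it had 20 higher, 0 lower and a median of 0.60. The latter were stronger, with a median scaled count of 192 against 104, and after loess scaling the order was turned, at 0.09 against 0.31. Spearman's rho between the number of fingers and the change was 0.01 over 238 peaks, with medians of 0.53 up to 9 fingers, 0.42 from 10 to 14 and 0.52 from 15.

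Peaks were also grouped by the start sites they cover. The 207 peaks at canonical start sites had 101 higher and a median of 0.53, whereas the 32 at other start sites only had 7 higher and a median of 0.09, with a median scaled count of 65.3 against 111. The 32 peaks that also covered a start site of another protein-coding gene had 23 higher and a median of 0.69, and the 160 peaks with no partner had 66 higher and a median of 0.40. The 13 peaks that covered 2 ZNF genes had 2 higher and a median of 0.33. Because reads with up to 3 locations had been kept, near-identical promoters can share reads. In the median ZNF peak 99.2% of the 32-base words occurred once in the genome, and the 196 peaks with at least 90% had 89 higher, 2 lower and a median of 0.50. Among the 8 largest rises, the peaks at ZNF347 (75.89%) and ZNF699 (87.03%) fell below 90%, so that some of their reads may come from similar sequence elsewhere.

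Motif content is given as a description. Searched on both strands in the 300-base windows, CCAAT (NF-Y) was in 52.3% of ZNF windows against 38.1% of other windows of chromosome 19 and 34.6% of all protein-coding promoter windows. In ZNF promoters of other chromosomes the share was 41.3%. CCGGAAG (ETS) was in 43.1% against 20.0% and 17.0%, and in 31.6% of ZNF windows elsewhere. GGGCGG (SP) was in 67.4% against 79.0% and 71.0%, and CACGTG (E box) in 2.51% against 10.6% and 9.37%. ZNF windows elsewhere held these in 66.4% and 6.48%. The 5 other motifs were in no more than 5.02% of ZNF windows, namely GCGCATGC (NRF1), TGACGTCA (CRE), AAGATGGCG (YY1) and TATAAA (the TATA box), with AP1 searched as TGANTCA. Cluster 4 had CCAAT in 32 of 32 windows and the ETS motif in 22, whereas cluster 3 had them in 22 and 3 of 25. CCAAT was in 61.0% of windows of cluster 10, but in 21.4%, 29.6%, 18.2% and 26.3% of those of clusters 2, 6, 8 and 9.

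Log2 changes of ZNF promoters were also set out by motif. The median was 0.52 with CCAAT and 0.44 without it, and 0.48 with the ETS motif and 0.51 without it. It was 0.59 in the 161 windows with GGGCGG and 0.35 in the 78 without it. Members of a duplicated cluster share sequence by descent, so that windows are not independent of each other.

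**Figure D5:**
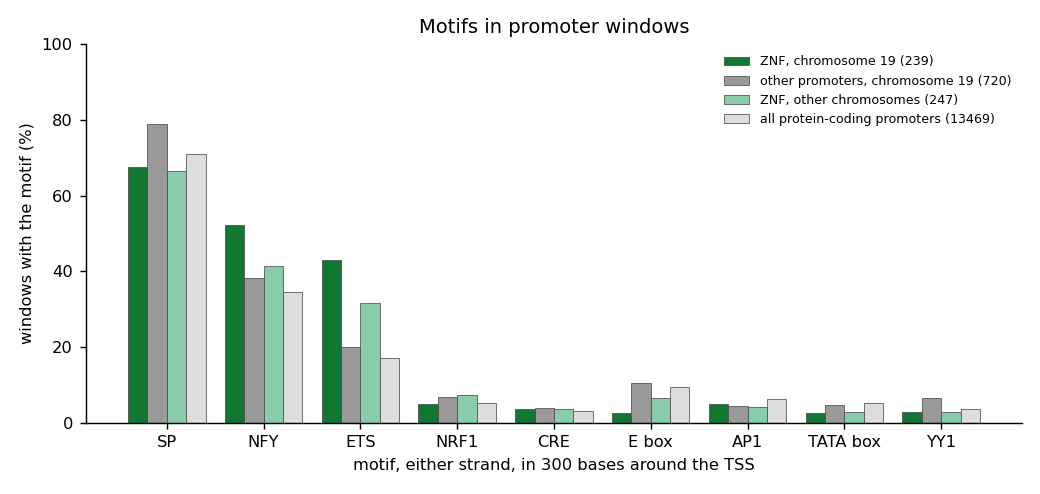
Share of promoter windows (300 bases around the TSS, either strand) that hold each of 9 motifs, for ZNF promoters of chromosome 19, other promoters of chromosome 19, ZNF promoters of other chromosomes and all protein-coding promoters, with the number of windows in parentheses. ZNF promoters of chromosome 19 have the highest bars for NFY (52.3%) and ETS (43.1%), and SP is less frequent than in other promoters of the chromosome (67.4% against 79.0%).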

How the data were processed

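ATAC-seq values of 3 G1 and 3 M-phase libraries were used, and the chromatin fraction and input samples were not analysed here. As the study's methods describe, the authors trimmed adapters (cutadapt), mapped reads to hg19 (Rbowtie in QuasR, up to 3 locations, 1 kept), removed mitochondrial reads (SAMtools), called broad peaks on merged replicates (MACS2) and counted reads in peaks. Versions and any Tn5 shift are not given in the sources used here. The deposited signal values are these counts scaled to the smallest library. The authors' log2 columns, which hold their own comparison of the phases, were not used. Unused columns of per-sample values numbered 0. M-phase columns carry a replicate's number, and how their HiSeq and NextSeq runs were joined is not stated.

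Start sites, exons and coding sequences came from GENCODE 44 lifted to GRCh37. limma 3.58.1 (R 4.3.3) was fitted to log2(scaled count + 8) of all peaks with a value equivalent to 10 in at least 3 libraries and a total of 15, which left 73121 of 129347. The fit was tested on simulated data. edgeR 4.0.16 was an alternative on recovered reads, since 99.94% to 100% of values were whole multiples of 1 read within 0.051. Named peaks were the 8 largest rises and falls (adjusted p under 0.05, mean at least 30, no overlap), the 5 highest, the 5 least changed with a mean of at least 100, and a list of 13 genes with known roles. Members, lists and cluster contrasts were chosen with earlier results of these data known. Alternatives were TMM, equal totals and loess scaling, a pseudocount of 1, other filters, the replicate block, each library left out and other member sets. The KRAB and single-copy subsets and the cluster contrast were added after seeing the data. Other steps used Python 3.11.15, numpy 2.4.6, pandas 2.3.3, numba 0.67.0 and matplotlib 3.10.9.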

Additional observations from a re-analysis of the deposited data

How the results depend on the processing

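The count of higher ZNF promoter peaks (108) was 67 with equal totals and within 1.5 times of 108 in the other settings, and from 84 to 125 with a library left out. The count of lower peaks (2) was 16 after loess scaling, 13 with equal totals, and 1 with a pseudocount of 1, without a filter, with at least 10 in every library and in each refit without a library (1 to 1). The median change (0.50) was 0.29 after loess scaling and 0.18 with equal totals. The median difference from the other promoters of chromosome 19 (−0.17) was 0.01 after loess scaling, a change of sign, and −0.02 within the same range of scaled counts. The difference between clusters 3 and 4 (0.79) was 0.58 after loess scaling and 0.86 with single-copy peaks. Over all peaks, 10439 higher and 9548 lower became 6342 and 18092 with equal totals, and 5001 were lower when at least 10 was asked in every library. In 419 refits of the 30 named peaks, 14 lost their call and 5 gained one, and the sign changed in 35, of which 31 were called in neither fit. After loess scaling the sign changed at ZNF787 (−0.08, call lost), ZNF444 (−0.65), ZNF471 (−0.42) and ZNF146 (−0.58), the last 3 then called lower, and at ZNF383 (−0.28) and ZNF91 (−0.23). With equal totals it changed at ZNF383 (−0.29), ZNF91 (−0.28), ZNF444 (−0.30), ZNF350 (−0.14), ZNF331 (−0.19), ZNF471 (−0.16) and ZNF146 (−0.23). With TMM scaling the values were −0.01 at ZNF383 and −0.00 at ZNF91 and ZNF444, and with edgeR −0.00 at ZNF383 and ZNF91 and −0.02 at ZNF444. With a library left out the values ranged from −0.10 to 0.26 at ZNF383, −0.05 to 0.24 at ZNF91, −0.11 to 0.32 at ZNF444, −0.37 to 0.25 at ZNF85, −0.47 to 0.22 at ZNF428, −0.00 to 0.34 at ZNF350, −0.02 to 0.37 at ZNF471 and −0.07 to 0.34 at ZNF146. Loess scaling removes by construction any change that follows level over all peaks. The cause of the other shifts was not tested.

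Same-numbered replicates of the phases did not deviate together (r = 0.00594, −0.0101 and 0.0284), and not every library correlated best with its own number. With the replicate block, 111 peaks were higher and 2 were lower. The planned subset by RefSeq proteins was not run, since no protein table was used here. Peaks with few reads limit what could be detected, as the SE of the named peaks rose to 0.286 at ZNF667.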

Other observations

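Peaks away from start sites were examined inside the ZNF clusters. Of 541 peaks inside the 10 clusters that overlapped no annotated TSS, 222 passed the filter on low values. Of these, 20 (9.01%) were higher in M-phase and 11 (4.95%) were lower. Over all peaks tested the shares were 14.3% and 13.1%, but those peaks include promoters. Protein-coding promoters made up 6181 of the 10439 higher and 695 of the 9548 lower calls. The share over all peaks without a TSS was not taken, so no excess or shortfall is read from these counts. In cluster 4, 35 of 91 such peaks were tested, with 1 higher and 5 lower, and in cluster 3 it was 7 of 17, with 3 higher and 0 lower. Promoters of other protein-coding genes inside the clusters were few, with 35 higher and 1 lower of 62 tested. In cluster 2 they had a median log2 change of 0.76, the same as the ZNF promoters there, whereas in cluster 8 they had 0.96 over 14 peaks against 0.38 over 22 ZNF promoters. In the other clusters that held any, their medians were 1.30 in cluster 3 (2 peaks), 0.47 in cluster 4 (2 peaks) and 0.27 in cluster 6 (4 peaks). They were 0.50 in cluster 9 (3 peaks) and 0.45 in cluster 10 (16 peaks). Whether the differences between clusters are shared by neighbouring genes was not tested. A further 9-base word, GGACTTCCG, was found in 19 of 51 canonical windows of cluster 10, in 1 canonical window of the other ZNF promoters (in cluster 5), and in 3 of 720 windows of other chromosome 19 promoters.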
